A study of Homo sapiens with 6 samples.

Results

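The 10 genes followed here mark injured or maladaptive proximal tubule and are 10 of the 38648 genes and gene copies in the files. They are *LCN2*, *HAVCR1*, *VCAM1*, *SPP1*, *CLU*, *SOX9*, *CD24*, *PROM1*, *C3* and *ICAM1*, measured in irradiated HK-2 cells. They were chosen by name, and each was listed once. HK-2 cells are human proximal tubule epithelium made to grow without limit in culture. The 6 bulk RNA-seq libraries came from cells that all received a single X-ray dose of 8 Gy and were collected on day 7. In 3 libraries the cells carried a negative control lentivirus (IR+NC-LV), and in 3 they carried a lentivirus that overexpresses PRDM16 (IR+PR-LV), a zinc finger transcription factor. Both lines had been selected with puromycin for cells that took up virus. Every library came from cells that were both irradiated and transduced, so no value here measures an effect of irradiation. Nothing in the labels says that the 3 libraries of a group came from separate cultures, so p-values measure only the spread between these libraries, which may be technical.

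Healthy proximal tubule cells reabsorb most of what the glomerulus filters and express little of most of these genes. After ischaemia, toxins or radiation, surviving cells lose parts of their transport programme, switch on secreted and surface injury proteins and reactivate the developmental factor SOX9. Most cells then recover, whereas a remainder keeps VCAM1 and inflammatory genes on, a state called failed or maladaptive repair. Several of these genes, *LCN2*, *VCAM1*, *ICAM1* and *C3* among them, are known targets of the inflammatory transcription factor NF-kB.

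Irradiated HK-2 cells held high levels of most of these transcripts, and none of the 9 that could be tested passed the test between the groups. *SPP1* and *LCN2* stood among the most abundant transcripts of the cells, followed by *C3*, *ICAM1*, *CD24* and *HAVCR1*, then *CLU* and *VCAM1*, then *SOX9*, while *PROM1* was nearly undetected. Of the 9 markers tested, 0 passed an adjusted p of 0.05 in edgeR's quasi-likelihood test, where 10 of 15340 genes (0.0652%) did. At an unadjusted p under 0.05 the counts were 0 of 9 markers and 1614 of all genes (10.5%), and DESeq2 also gave 0 markers at that limit. The 95% intervals of the 9 fold changes lay between 0.691 and 1.33, so each marker tested had an interval that ended within these bounds.

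The depth of the libraries was 13407074 to 28540041 counts. *PRDM16* itself had 2, 0 and 1 counts in IR+NC-LV, against 14, 10 and 8 in IR+PR-LV. That is a ratio of 8.51 per count sequenced (exact 95% interval 2.66 to 43.4, counting error only). *PRDM16* fell below the filter on low counts and was not tested between the groups. Its mean stayed low in both, at 0.0245 TPM in IR+NC-LV, against 0.201 TPM in IR+PR-LV. On the first principal component (30.0% of the variance) the groups did not overlap. IR+NC-LV libraries lay at -10.18, -0.9 and -30.45 there, and IR+PR-LV libraries at 8.61, 16.21 and 16.71, with IR+NC-LV replicate 3 farthest out. On the second (23.3%), IR+PR-LV replicate 1 at 26.08 and IR+PR-LV replicate 3 at -19.52 lay farthest out, on opposite sides. Of 22 proximal tubule markers, 9 reached a mean of 1 TPM in IR+NC-LV, including *PAX8*, *GGT1*, *DPP4* and *MIOX*, whereas the transporters and receptors *LRP2*, *CUBN* and *SLC34A1* were near 0 and *SLC5A1* was at 0. The 22 markers summed to 279 to 313 TPM in IR+NC-LV, against 253 to 303 TPM in IR+PR-LV. A large part of the sum in IR+NC-LV was *PAX8*, a nephron lineage factor, so the sum does not measure proximal tubule identity alone. Markers of other tubule segments (0 of 8) and of endothelium (0 of 6) did not reach 1 TPM. Of 6 fibroblast markers, *LUM* and *COL1A1* reached it and *COL1A2*, *DCN* and *PDGFRA* were near 0, with sums of 130.4 to 136 TPM in IR+NC-LV, against 106 to 150.0 TPM in IR+PR-LV.

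Sequences are shown for the markers that inflammatory signalling is known to act on. The first set is the qPCR primer pair designed for human *LCN2*, because it marks which *LCN2* transcripts that assay can see. In the GENCODE v29 annotation of GRCh38, the pair matched transcript LCN2-201 and spanned 136 bases. The forward primer crossed the junction of exons 6 and 7 of 7 (chromosome 9, 128153116 to 128153317, plus strand), and the reverse primer lay in exon 7 after the coding sequence (128153416 to 128153435). Both primers were also found in the noncoding LCN2-204. Neither was found in the coding transcripts LCN2-202 and LCN2-203, and the RNA-seq counts cover all exons of the gene.
LCN2 forward: ctgagtgcacaggtgccg
LCN2 reverse: tttagcagacaaggtggggc

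The second set is 100 bases ahead of the gene start of *LCN2*, *VCAM1* and *ICAM1*, from RefSeq promoters on GRCh38.p14. Capitals mark a match to the 10-base NF-kB consensus on either strand, or the box TATAAA on the gene strand. *LCN2* is read from chr9:128149253-128149352 on the plus strand, 200 to 101 bases ahead of the start. *VCAM1* (chr1:100719642-100719741) and *ICAM1* (chr19:10271020-10271119) are read on the plus strand over the last 100 bases ahead of the start.
LCN2: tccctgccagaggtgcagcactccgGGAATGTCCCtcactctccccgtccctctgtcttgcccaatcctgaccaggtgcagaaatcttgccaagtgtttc
VCAM1: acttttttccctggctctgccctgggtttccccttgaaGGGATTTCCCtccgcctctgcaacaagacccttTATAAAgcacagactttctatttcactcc
ICAM1: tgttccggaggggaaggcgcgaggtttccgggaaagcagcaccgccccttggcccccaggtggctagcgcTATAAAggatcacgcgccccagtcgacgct

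The NF-kB consensus was present in at least 1 entry of 3 of the 7 markers with a promoter entry (*LCN2*, *VCAM1* and *CD24*). It was present in 5.91% of all 35116 promoter entries of the same length. The markers are counted per gene, and *CD24* and *PROM1* have several entries, so the shares are in unlike units. The window of *ICAM1* held no match to these letters, which says nothing about binding elsewhere. TATAAA stood within 50 bases ahead of the start in *VCAM1* and *ICAM1*, and in 2.63% of all promoter entries, again in unlike units. These matches are descriptions of sequence and were not tested for binding.

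In the files, with coordinates on GRCh38, the genes for secreted products are *SPP1* on chromosome 4 (87975714 to 87983411, plus strand), *LCN2* on chromosome 9 (128149453 to 128153453, plus strand), *C3* on chromosome 19 (6677704 to 6720650, minus strand) and *CLU* on chromosome 8 (27596917 to 27614700, minus strand). The genes for surface proteins are *ICAM1* on chromosome 19 (10271120 to 10286615, plus strand), *VCAM1* on chromosome 1 (100719742 to 100739045, plus strand), *HAVCR1* on chromosome 5 (157028383 to 157069633, minus strand), *CD24* on chromosome 6 (106969831 to 106976855, minus strand) and *PROM1* on chromosome 4 (15968226 to 16084059, minus strand). The gene for the transcription factor is *SOX9* on chromosome 17 (72121020 to 72126416, plus strand). Counts cover their exons.

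Levels between genes are given as TPM, which here divides by all exon bases of a gene. These can exceed the length of a transcript. For *HAVCR1* they were 3265 bases, against 1845 in its longest coding transcript, so close levels are ordered with caution. *SPP1* encodes osteopontin, a secreted phosphoprotein that binds integrins and CD44. Its level was 1534 ± 200.3 TPM (SD, n = 3) in IR+NC-LV, higher than 99.8% of the genes with any count. *LCN2* encodes the iron-siderophore carrier NGAL, which is measured in urine as a marker of acute kidney injury, and reached 850.4 ± 66.3 TPM (SD, n = 3). *C3*, the central component of complement, was at 239 ± 3.50 TPM (SD, n = 3). Each of these genes lay above the next in 6 of 6 libraries.

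*ICAM1*, the receptor that leukocytes bind through beta-2 integrins, was at 156 ± 4.64 TPM (SD, n = 3) in IR+NC-LV. *CD24*, a small surface glycoprotein of tubular progenitor-like cells, was at 140.5 ± 27.0 TPM (SD, n = 3). *HAVCR1* encodes KIM-1, the phosphatidylserine receptor with which injured tubule cells take up dead neighbours, and was at 139.5 ± 7.84 TPM (SD, n = 3). The range of *CD24* overlapped those of *ICAM1* and *HAVCR1* in both groups, so *CD24* did not differ from either neighbour beyond its spread, whereas *ICAM1* lay above *HAVCR1* in 6 of 6 libraries.

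The lower levels covered a wide range. *CLU*, the secreted chaperone clusterin, was at 40.5 ± 7.55 TPM (SD, n = 3) in IR+NC-LV, and *VCAM1*, the surface receptor for integrin alpha-4 beta-1, at 20.5 ± 3.14 TPM (SD, n = 3). *SOX9*, the transcription factor of tubule regeneration, was at 4.74 ± 0.434 TPM (SD, n = 3), higher than 61.7% of genes with any count. *PROM1*, the surface protein CD133 that is paired with CD24 as a progenitor marker, was at 0.0569 ± 0.0705 TPM (SD, n = 3). Thus the pair CD24 and PROM1 was split, with *CD24* at the 95.1 percentile and *PROM1* at the 18.6 percentile.

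The order of the 10 levels was the same in IR+PR-LV. *SPP1* was at 1543 ± 142 TPM (SD, n = 3) there, *LCN2* at 877 ± 38.6 and *C3* at 224 ± 27.6. *ICAM1* was at 153 ± 9.48 TPM, *CD24* at 140.4 ± 23.2 and *HAVCR1* at 134 ± 4.54 (SD, n = 3). *CLU* was at 34.9 ± 4.55 TPM, *VCAM1* at 17.8 ± 1.47, *SOX9* at 3.97 ± 0.404 and *PROM1* at 0.0175 ± 0.0162 (SD, n = 3). All neighbours other than the pairs with *CD24* were separate in 6 of 6 libraries, and the 10 genes together held 0.283% to 0.337% of the TPM of a library.

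**Figure D1:**
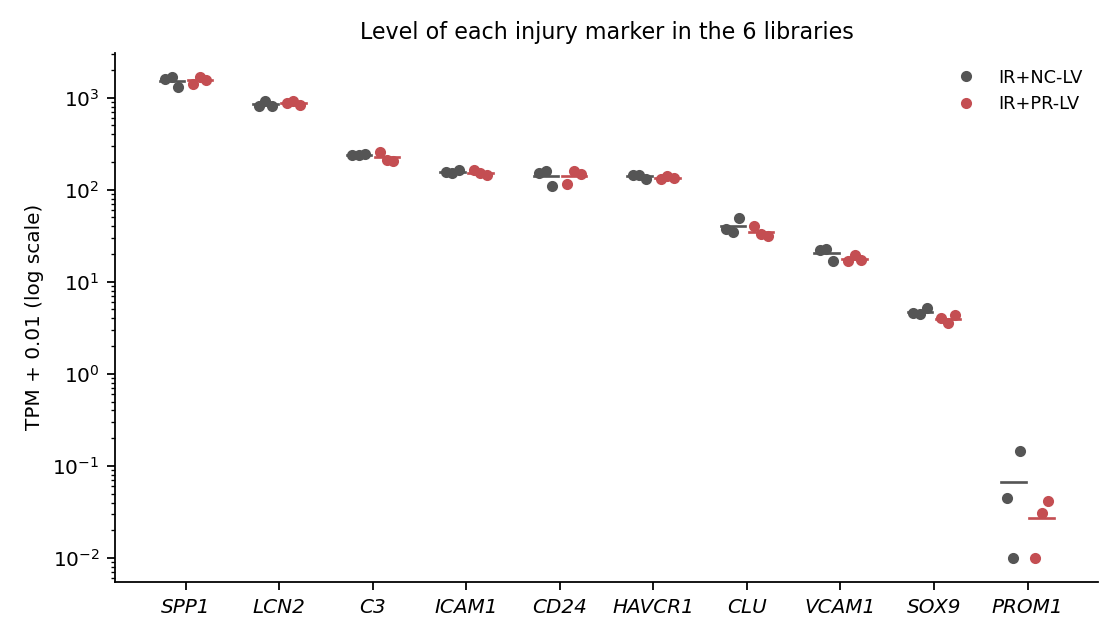
Level of each of the 10 markers as TPM plus 0.01 on a log axis, with 1 point per library (grey, IR+NC-LV; red, IR+PR-LV; n = 3 each) and a bar at the group mean. The markers run from SPP1 at 1534 TPM down to SOX9 at 4.74 TPM in IR+NC-LV, with PROM1 near the floor of the axis, where points at 0.01 are libraries without a count.

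Between the groups, values are TMM-normalized CPM (counts scaled to the size of the library), which compare 1 gene across libraries. The secreted markers are taken first. *SPP1* was at 862, 927 and 657 CPM in IR+NC-LV replicates 1, 2 and 3 and at 763, 926 and 829 CPM in IR+PR-LV. The groups overlapped, with the lowest library in IR+NC-LV, and the log2 fold change (IR+PR-LV minus IR+NC-LV) was 0.04 ± 0.12 (SE), with a 95% interval of -0.24 to 0.32 and an adjusted p of 0.925 in edgeR.

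*LCN2* was at 206, 238 and 190.3 CPM in IR+NC-LV and at 223, 236 and 212 CPM in IR+PR-LV. All 3 IR+PR-LV values lay within the range of the controls. The log2 fold change was 0.08 ± 0.087 (SE), with a 95% interval of -0.11 to 0.28 and an adjusted p of 0.786 in edgeR. Leaving out IR+NC-LV replicate 3 gave 0.013, leaving out replicate 2 of the same group gave 0.17, and leaving out IR+PR-LV replicate 2 gave 0.038.

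*C3* was at 383, 387 and 365 CPM in IR+NC-LV and at 416, 349 and 328 CPM in IR+PR-LV. The controls were close together, and the IR+PR-LV libraries lay on both sides of them, with 1 above and the other two below. This gave a log2 fold change of -0.05 ± 0.087 (SE), with a 95% interval of -0.25 to 0.14 and an adjusted p of 0.862 in edgeR. Without IR+PR-LV replicate 3 the value was 0.017. Without IR+PR-LV replicate 1, the highest library, it was -0.16 with an unadjusted p of 0.0244 and an adjusted p of 0.234 in edgeR. Over 14 alternatives its adjusted p ran from 0.234 to 0.979.

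*CLU* was at 36.1, 34.0 and 44.0 CPM in IR+NC-LV and at 39.0, 32.1 and 30.4 CPM in IR+PR-LV. The groups overlapped through IR+PR-LV replicate 1, and the log2 fold change was -0.17 ± 0.12 (SE, 95% interval -0.44 to 0.11, adjusted p = 0.684 in edgeR). The value was -0.051 without IR+NC-LV replicate 3 and -0.097 without IR+PR-LV replicate 3. Without IR+PR-LV replicate 1 it was -0.27 (unadjusted p = 0.0410, adjusted p = 0.278 in edgeR), and over 14 alternatives its adjusted p ran from 0.278 to 0.937. Of the 3126 exon bases of *CLU*, 493 (15.8%) also lie in exons of *EPHX2* on the opposite strand. Reads from these bases cannot be told apart unless the counting used strand, which is not given in the sources used here.

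The surface proteins overlapped between the groups as well. *ICAM1* was at 141, 143 and 138 CPM in IR+NC-LV and at 150.2, 143 and 131 CPM in IR+PR-LV. It had the narrowest interval of the 9 markers, a log2 fold change of 0.0099 ± 0.066 (SE) between -0.14 and 0.16 (adjusted p = 0.970 in edgeR). Its direction changed with the scaling of the libraries.

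*VCAM1*, which marks failed repair in tubule, was at 21.0, 21.9 and 15.04 CPM in IR+NC-LV and at 16.1, 19.0 and 16.5 CPM in IR+PR-LV. The IR+PR-LV values lay below IR+NC-LV replicates 1 and 2 and above replicate 3, for a log2 fold change of -0.17 ± 0.14 (SE, 95% interval -0.50 to 0.15, adjusted p = 0.713 in edgeR). This value moved with single libraries. It was -0.074 without IR+NC-LV replicate 2 and -0.12 without IR+NC-LV replicate 1. Without IR+NC-LV replicate 3 it was -0.32, with an unadjusted p of 0.0178 and an adjusted p of 0.446 in edgeR, in a range of 0.446 to 0.926 over 14 alternatives.

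*HAVCR1* was at 144, 148 and 122 CPM in IR+NC-LV and at 132, 143 and 135 CPM in IR+PR-LV. The IR+PR-LV values fell inside the control range, and the log2 fold change was -0.02 ± 0.080 (SE, 95% interval -0.20 to 0.16, adjusted p = 0.954 in edgeR). KIM-1 is shed from the cell surface by proteases, which transcript levels do not measure.

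Of the 9 markers tested, *CD24* varied most among libraries. It was at 166, 177 and 111 CPM in IR+NC-LV and at 126, 176 and 162 CPM in IR+PR-LV, and both groups held 1 low library. The coefficient of variation was 23.2% in IR+NC-LV (1.93% from counting alone) and 16.7% in IR+PR-LV (1.73% from counting alone). The log2 fold change was 0.03 ± 0.17 (SE, 95% interval -0.36 to 0.42, adjusted p = 0.967 in edgeR), -0.15 without IR+NC-LV replicate 3 and 0.16 without IR+PR-LV replicate 1. The sign also changed with scaling by total count alone. Of the 100-base stretches of its longest coding transcript, 99.3% occur in no other annotated gene, and the rest match the pseudogene *CD24P4*.

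*SOX9* was the only marker whose groups did not overlap. It was at 5.48, 5.46 and 5.90 CPM in IR+NC-LV and at 4.88, 4.40 and 5.27 CPM in IR+PR-LV. These levels rest on 82 to 123 counts per library, for which counting alone gives a coefficient of variation of 10.2% in IR+NC-LV, more than the 4.42% seen. Its log2 fold change was -0.21 ± 0.14 (SE, 95% interval -0.53 to 0.11, adjusted p = 0.645 in edgeR). The exact two-sided permutation test gave p = 0.1, the smallest that 3 against 3 libraries allow. The groups did not overlap in 1 of 9 markers and in 17.0% of all genes tested, so the markers' share was no higher than that of all genes.

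*PROM1* fell below the filter on low counts and was not tested. It had 1, 0 and 3 counts in IR+NC-LV, against 0, 1 and 1 in IR+PR-LV. The ratio of IR+PR-LV (2 counts) to IR+NC-LV (4 counts), per count sequenced, was 0.399 (exact 95% interval 0.0361 to 2.78, counting error only), so no difference was detectable at this depth. A count of 0 allowed up to 0.142 CPM in IR+NC-LV replicate 2 and 0.176 CPM in IR+PR-LV replicate 1.

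**Figure D2:**
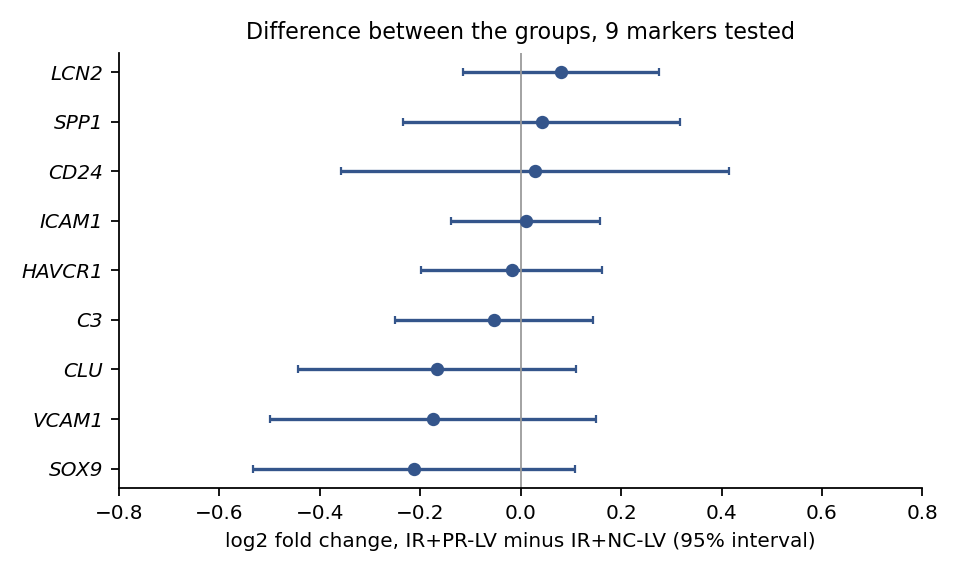
Log2 fold change of the 9 markers tested, IR+PR-LV minus IR+NC-LV (n = 3 each), as points with 95% intervals from edgeR, ordered by value. All 9 intervals include 0, from SOX9 at -0.21 to LCN2 at 0.08, and ICAM1 has the narrowest and CD24 the widest interval.

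Of the 9 markers, 4 had a positive and 5 a negative log2 fold change, with a median of -0.02, beside 0.0044 over all genes tested. The median absolute value was 0.05 for the markers and 0.10 for all genes tested, and the median standard error was 0.12 and 0.11. In bulk RNA, fewer cells that express a gene and less RNA per cell cannot be told apart, so these group means do not describe single cells.

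Libraries of the same group also differed. Over the 6 libraries, the highest value exceeded the lowest 1.59-fold for *CD24*, 1.46-fold for *VCAM1*, 1.44-fold for *CLU* and 1.41-fold for *SPP1*. The ratio was 1.34 for *SOX9*, 1.27 for *C3*, 1.25 for *LCN2*, 1.21 for *HAVCR1* and 1.15 for *ICAM1*. In 4 of 9 markers (*HAVCR1*, *VCAM1*, *SPP1* and *CD24*) the lowest pair of libraries was IR+NC-LV replicate 3 and IR+PR-LV replicate 1, as in 12.3% of all genes tested. That pair was picked out after the values were seen. *CLU* and *SOX9* were instead highest in IR+NC-LV replicate 3, and *C3* and *ICAM1* were highest in IR+PR-LV replicate 1.

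**Figure D3:**
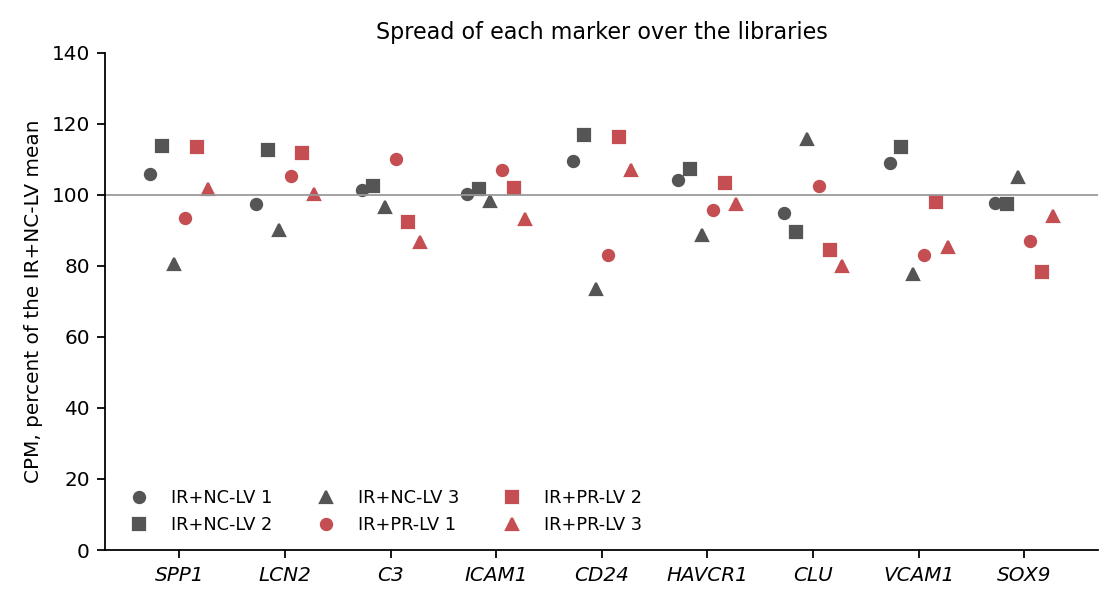
CPM of the 9 markers tested in each library, as a percent of the IR+NC-LV mean of that marker, with colour for the group (grey, IR+NC-LV; red, IR+PR-LV) and shape for the replicate number. IR+NC-LV replicate 3 (grey triangles) is lowest for SPP1, LCN2, CD24, HAVCR1 and VCAM1 and highest for CLU and SOX9.

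The genes around the markers were read from lists of partners and relatives. Among 30 other tubular injury genes, 23 were tested and 0 passed the threshold, with a median log2 fold change of 0.03. The most abundant were *VIM*, the intermediate filament of dedifferentiated cells, at 1841 ± 52.2 TPM (SD, n = 3) in IR+NC-LV (log2 fold change 0.04 ± 0.052, SE) and the calcium-binding *S100A6* at 1455 ± 222 TPM (-0.12 ± 0.13, SE). The only gene of this list with an unadjusted p under 0.05, named after its values were seen, was the cytokine *IL34*, whose mean was 1.28 CPM in IR+NC-LV, against 0.601 in IR+PR-LV (log2 fold change -1.12, adjusted p = 0.389 in edgeR).

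Among 22 genes of failed repair, 19 were tested and 0 passed, with a median of -0.02. *RELB*, a subunit of noncanonical NF-kB, was at 24.3, 21.8 and 29.01 CPM in IR+NC-LV and at 21.5, 14.6 and 16.0 CPM in IR+PR-LV. Its groups did not overlap, and its log2 fold change of -0.53 ± 0.16 (SE) had an adjusted p of 0.320 in edgeR. *TNFRSF12A*, the receptor of TWEAK, had -0.25 ± 0.061 (SE, adjusted p = 0.216 in edgeR). The chemokine *CXCL8*, at 5081 ± 964 TPM (SD, n = 3) in IR+NC-LV, had 0.29 ± 0.17 (SE, adjusted p = 0.596 in edgeR), and the hyaluronan receptor *CD44* had 0.05 ± 0.073 (SE).

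Of 10 partners and inducers of *LCN2*, 9 were tested and 0 passed, with a median of 0.01. *NFKBIZ*, the nuclear cofactor of NF-kB that *LCN2* induction requires, was at 382 ± 17.8 TPM (SD, n = 3) in IR+NC-LV with a log2 fold change of 0.10 ± 0.060 (SE). *CEBPB*, a transcription factor of acute phase genes, had -0.19 ± 0.072 (SE, adjusted p = 0.415), and *TRAF3IP2*, the adaptor of the IL-17 receptor, -0.23 ± 0.097 (SE, adjusted p = 0.462), both in edgeR.

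The pathway of *C3* was detected in part. Genes with several listed copies, such as *C4B*, were read from the copy with the most counts. A low count there need not mean absent expression. Of 33 complement genes, 14 were tested and 0 passed, with a median of -0.0036, while 12 were below the filter and 7 had no count. The membrane regulators *CD46* and *CD59* were the most abundant, at 263 ± 17.6 and 185 ± 12.5 TPM (SD, n = 3) in IR+NC-LV, and had log2 fold changes of 0.12 ± 0.0995 and 0.10 ± 0.088 (SE). The only gene of this list with an unadjusted p under 0.05, also named after its values were seen, was *C8G*, at -0.72 with a mean under 1 CPM in both groups.

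Relatives and counter-receptors of *ICAM1* and *VCAM1* held the largest single difference of these lists. Of 25 genes, 17 were tested and 0 passed, with a median of 0.09. *ITGAM*, the integrin alpha-M chain that binds ICAM1 and the C3 fragment iC3b, had 52, 54 and 95 counts in IR+NC-LV, against 9, 26 and 10 in IR+PR-LV. Its groups did not overlap, and its level was 2.91 ± 1.77 TPM against 0.446 ± 0.146 TPM (SD, n = 3). The log2 fold change was -2.54 ± 0.42 (SE), with an unadjusted p of 0.00018 and an adjusted p of 0.0755 in edgeR. It passed the threshold in DESeq2 (adjusted p = 6.5e-06), without the filter on low counts (adjusted p = 1.3e-08 in edgeR) and without IR+NC-LV replicate 2 (adjusted p = 0.0413 in edgeR), and it reached 0.259 without IR+PR-LV replicate 3. It passed in 3 of the 13 alternatives that tested it. *ICAM2*, a relative of ICAM1, had a log2 fold change of -1.10 ± 0.32 (SE, adjusted p = 0.310 in edgeR). The 7 leukocyte markers summed to 187 to 205 TPM in IR+NC-LV, against 159 to 175 TPM in IR+PR-LV. Of these, *CD68*, *CD14* and *LYZ* reached 1 TPM, *PTPRC* was near 0, and *LST1* and *MS4A1* were at 0. The sum thus rests mostly on *CD68*, *CD14* and *LYZ*, so it does not measure leukocytes alone. Any part of leukocytes in the *ITGAM* values was not tested.

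The integrin *ITGB1*, part of the receptors of both VCAM1 and osteopontin, was at 1853 ± 42.8 TPM in IR+NC-LV, against 2130.0 ± 110.1 TPM in IR+PR-LV (SD, n = 3), with a log2 fold change of 0.24 ± 0.065 (SE, adjusted p = 0.264 in edgeR). *ALCAM* (0.23 ± 0.058, adjusted p = 0.245) and *F11R* (0.15 ± 0.060, adjusted p = 0.422), both epithelial adhesion molecules, had values of the same sign in edgeR. *MSN*, which anchors ICAM1 to actin, had 0.04 ± 0.060 (SE). Of 16 osteopontin receptors and relatives, 9 were tested and 0 passed, with a median of 0.06, and *ITGB1* was the only gene with an unadjusted p under 0.05.

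The remaining lists were small. Of 6 relatives, sheddases and listed partners of KIM-1, 6 were tested and 0 passed, with a median of 0.07. The cargo receptor *LMAN1* had 0.23 ± 0.076 (SE, adjusted p = 0.359 in edgeR) and the dynein light chain *DYNLT1* 0.02 ± 0.12 (SE). Of 8 clusterin receptors and extracellular chaperones, 5 were tested and 0 passed, with a median of 0.04, and the receptors *VLDLR* and *LRP1* had 0.08 ± 0.057 and 0.04 ± 0.096 (SE). Of 18 other SOX factors, 6 were tested and 0 passed, with a median of 0.04. *SOX4*, the most abundant at 63.8 ± 6.07 TPM (SD, n = 3) in IR+NC-LV, had -0.03 ± 0.066 (SE), *SOX12* had 0.11 ± 0.13 (SE), and *SOX13* had -0.28 ± 0.11 (SE, adjusted p = 0.448 in edgeR).

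Of 15 genes reported with CD24 and PROM1 in tubular progenitors, 9 were tested and 0 passed, with a median of 0.10. Their values were positive in 8 and negative in 1, and 0 had an unadjusted p under 0.05 in edgeR. That was the most uneven split of these lists and was picked out after the values were seen. The share of positive values over all genes tested was not computed, so no trend is read from it. *ANXA3*, a membrane-binding annexin, had 0.11 ± 0.12 (SE), and *PAX8*, the nephron lineage factor, was at 136 ± 7.84 TPM (SD, n = 3) in IR+NC-LV and had 0.07 ± 0.084 (SE).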

How the data were processed

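Total RNA of irradiated HK-2 cells was selected by poly(A), sequenced from both ends on an MGI instrument, and the authors removed low-quality and adapter reads. Per the file headers, the authors deposited raw counts per gene, without normalization, with TPM and FPKM. The submitters' processing notes name CASAVA, featureCounts 2.0.1, DESeq2 1.16.1 and hg38, with no role given. Deposited TPM served for levels between genes, the deposited counts for tests, and the deposited FPKM was not used. The aligner, and whether counting used strand, are not given in the sources used here.

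The groups (3 libraries each, 13407074 to 28540041 counts) were compared in edgeR 4.0.16 (R 4.3.3) over 15340 genes, with filterByExpr (minimum count 10, minimum total count 15), TMM factors of 0.981 to 1.04, the quasi-likelihood test without covariates and Benjamini-Hochberg adjustment over all genes tested at 0.05. Standard errors came from the fold change and F statistic. The procedure was tested on simulated data. Intervals on counts and limits from 3 counts cover counting error only. The members and lists were chosen with earlier results of these data known. Named genes are PRDM16, the markers, and per list those past the threshold, those with an unadjusted p under 0.05 and at least 1 CPM, and the 2 most abundant. *IL34* and *C8G*, under 1 CPM on average, were named outside this rule. Alternatives were other normalizations and filters, DESeq2 1.42.0, a replicate block, summed gene copies and each library left out. Overlaps used the exon coordinates of the files, and uniqueness used GENCODE v29 transcripts. Promoters came from RefSeq, with an entry for 7 of 10 markers.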

Additional observations from a re-analysis of the deposited data

How the results depend on the processing

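Under 14 alternatives, 0 markers passed the threshold in any of them, and 14 of 126 recomputed fold changes changed sign. The number of all genes past the threshold, 10 in edgeR with TMM, was 342 without the filter on low counts, 166 in DESeq2 and 1 at an adjusted p under 0.01, and leaving out single libraries gave between 1 and 28. The value of 1 came from leaving out IR+NC-LV replicate 1, and likewise from leaving out IR+PR-LV replicate 3, the value of 28 from leaving out replicate 2 of IR+NC-LV, and 16 from leaving out its replicate 3. The cause was not tested. With the replicate number as a block, 3 genes passed. The labels do not say whether same-numbered libraries share more than a number. Their deviations had correlations of -0.009, 0.051 and 0.071, which cannot decide this with 3 libraries per group. Without the filter 1 failed-repair gene (*RELB*) and 2 adhesion genes (*ITGAM* and *ICAM2*) passed, in DESeq2 3 adhesion genes (*ITGAM*, *ALCAM* and *ITGB1*) and 1 osteopontin gene (*ITGB1*) passed, and with each library left out 0 to 1 adhesion genes passed. The log2 fold change of *ICAM1* was -0.0011 with upper-quartile normalization and -0.031 with total counts alone, where *CD24* was at -0.0092. With each library left out, values ranged from -0.094 to 0.035 for *HAVCR1*, -0.090 to 0.14 for *SPP1*, -0.15 to 0.16 for *CD24*, -0.034 to 0.062 for *ICAM1*, -0.16 to 0.017 for *C3*, 0.013 to 0.17 for *LCN2*, -0.32 to -0.074 for *VCAM1*, -0.27 to -0.051 for *CLU* and -0.28 to -0.14 for *SOX9*. Depth limits *PROM1* and *SOX9*. The spread between libraries was above counting error in both groups for *CD24*, *SPP1*, *VCAM1*, *CLU*, *LCN2*, *HAVCR1* and *C3*, and limits these. For *ICAM1* it was above counting error only in IR+PR-LV. The ranks of the 10 levels were the same with CPM per kilobase.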
